A study of Mus musculus with 7 samples.

Results

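The 10 genes described here encode the period and cryptochrome repressors (Per1, Per2, Per3, Cry1, Cry2), the activators Arntl (also called Bmal1) and Clock, the nuclear receptors Nr1d1 and Nr1d2 (REV-ERB alpha and beta) and the output factor Dbp. They were chosen by their symbols among 28233 genes, with the expression difference between Cr1l and Vec tumours already known. That difference is therefore given for them as a description, with no p-value, and counts of those that pass a threshold stand only beside the share over all genes. All 10 passed the filter of a mean of at least 1 TPM (a length-scaled share of a tumour's transcripts), as did 14954 genes in all.

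RNA came from 7 tumours of B16mhgp100 (spelled B16mghp100 in the sample descriptions), a mouse B16 melanoma line, that grew under the skin of C57BL/6 mice. Tumours 1 to 4 (Cr1l) over-expressed Cr1l, which encodes the complement inhibitor Crry, and tumours 5 to 7 (Vec) carried the vector. Every mouse received anti-PD1 from day 10 at 200 µg per dose, 2 doses a week and 4 in all, and tumours were collected 1 day after the last. No tumour without antibody was included. The labels do not state the age of the mice, the time of day of collection, the vector's promoter or whether each tumour came from its own mouse. P-values thus cover only the spread between these tumours. The vector tumours 6 and 7 carry a further number in their titles, with no explanation.

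In mammalian cells the clock is a feedback loop. ARNTL and CLOCK bind E-box elements and switch on the Per and Cry genes, whose proteins then return to the nucleus and block ARNTL and CLOCK. A second loop runs through the ROR and REV-ERB receptors, which raise and lower Arntl transcription. DBP binds D-box elements of output genes. Per1 is also an acute response gene: cAMP signalling, serum and glucocorticoids induce it outside the daily rhythm. In most tissues the transcripts of Arntl and Clock peak at another time of day than those of Dbp, Nr1d1 and the Per genes.

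Control elements of this kind could be read in the promoters of 9 of the 10 genes, for which RefSeq start sites on GRCm38.p6 gave 13 windows of 300 bases. Per2 was not matched. The motifs were searched on both strands and are printed in capitals below, in the 250 bases before the start, 5′ to 3′ on the gene's own strand. The E-box CACGTG stood before Cry1 and before the first Per1 start, and in 7.15% of all 32851 windows.
Per1, first start, chr11:69098699-69098948, plus strand: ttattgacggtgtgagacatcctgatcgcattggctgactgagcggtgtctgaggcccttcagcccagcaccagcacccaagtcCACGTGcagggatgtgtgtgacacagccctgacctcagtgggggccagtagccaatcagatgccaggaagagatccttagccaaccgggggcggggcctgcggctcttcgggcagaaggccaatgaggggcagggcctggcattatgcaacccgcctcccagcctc
Cry1, chr10:85185055-85185304, minus strand: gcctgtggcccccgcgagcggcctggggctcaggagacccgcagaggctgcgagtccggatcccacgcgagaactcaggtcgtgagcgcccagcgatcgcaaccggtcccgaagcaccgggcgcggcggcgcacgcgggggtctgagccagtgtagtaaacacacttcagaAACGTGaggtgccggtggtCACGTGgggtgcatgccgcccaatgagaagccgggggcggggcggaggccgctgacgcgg
In the Per1 window the E-box began 166 bases before the start. In the Cry1 window it began 60 bases before the start, and the reverse complement of the E′-box CACGTT began 79 bases before it.

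The E′-box was found in 4.68% of all windows and also before Cry2 and Nr1d1, both times as its reverse complement. It began 166 bases before the Cry2 start and 28 bases before the Nr1d1 start.
Cry2, chr2:92434070-92434319, minus strand: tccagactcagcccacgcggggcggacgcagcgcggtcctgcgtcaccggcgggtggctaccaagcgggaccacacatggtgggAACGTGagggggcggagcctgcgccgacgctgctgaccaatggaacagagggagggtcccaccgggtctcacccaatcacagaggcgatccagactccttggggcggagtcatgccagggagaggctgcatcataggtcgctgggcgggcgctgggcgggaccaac
Nr1d1, chr11:98775378-98775627, minus strand: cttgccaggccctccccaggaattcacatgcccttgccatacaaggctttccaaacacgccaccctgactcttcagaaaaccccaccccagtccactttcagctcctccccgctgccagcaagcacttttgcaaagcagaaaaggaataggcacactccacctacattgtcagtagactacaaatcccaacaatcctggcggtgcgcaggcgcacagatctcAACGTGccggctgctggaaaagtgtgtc

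The D-box TTATGTAA, present in 0.938% of all windows, stood at 2 places before Per3, 205 and 158 bases ahead of the start. The core TGACGT of the cAMP response element, present in 7.51% of windows, lay before the second Per1 start, 132 bases ahead of it. It is contained in the full element TGACGTCA, which no window of the 9 genes held and 1.79% of all windows did.
Per3, chr4:151044666-151044915, minus strand: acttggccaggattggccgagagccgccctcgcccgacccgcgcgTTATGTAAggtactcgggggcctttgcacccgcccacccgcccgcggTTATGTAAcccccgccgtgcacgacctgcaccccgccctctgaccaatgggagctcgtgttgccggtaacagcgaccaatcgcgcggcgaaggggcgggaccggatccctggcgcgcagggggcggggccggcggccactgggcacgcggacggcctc
Per1, second start, chr11:69099902-69100151, plus strand: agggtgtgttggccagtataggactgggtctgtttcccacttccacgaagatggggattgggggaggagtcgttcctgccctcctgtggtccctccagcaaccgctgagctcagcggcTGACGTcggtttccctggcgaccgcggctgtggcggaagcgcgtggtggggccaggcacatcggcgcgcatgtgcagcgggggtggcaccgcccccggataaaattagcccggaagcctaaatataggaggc

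The ROR and REV-ERB element TAGGTCA, in 2.61% of windows, began at base 31 of the transcript from the second Arntl start, and the variant TGGGTCA (3.98% of windows) was in none of the 13.
Arntl, chr7:113207530-113207559, plus strand: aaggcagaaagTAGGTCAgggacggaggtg
With the 250 upstream bases alone this Arntl match was lost and the others kept. Promoters of Clock, Nr1d2 and Dbp held none of the motifs. These matches describe letters in the reference and do not show that a factor was bound.

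The tumours were melanocytic by their markers: all 8 (Pmel, Mlana, Tyr, Tyrp1, Dct, Sox10, Mitf, Slc45a2) were detected in each. Their summed level was 9173 to 20406 TPM in Cr1l tumours and 13349 to 20749 TPM in Vec tumours. Cr1l itself stood at 76.37 to 83.57 TPM in Cr1l tumours and 46.29 to 54.94 TPM in Vec tumours. Libraries stood apart within both groups. The macrophage list (10 markers) summed to 5138 and 4340 TPM in Cr1l 3 and Cr1l 4, against 417 to 1363 TPM in the other 5 tumours, and the fibroblast list to 5889 and 4724 TPM, against 134 to 1132 TPM. Red cell transcripts summed to 41285 TPM in Vec 6 and 9694 TPM in Vec 7, against 416 TPM in Vec 5 and 106 to 389 TPM in Cr1l tumours, so this list did not overlap between the groups. Nor did the B cell list (6 markers), which summed to 22.3, 11.1, 90.2 and 26.4 TPM in Cr1l tumours and 3.14, 2.24 and 2.7 TPM in Vec tumours. Per1, Cry1 and Cry2 separate the same groups, and the part of red cells and B cells in their values was not tested. In bulk RNA, fewer cells of a type and less RNA per cell cannot be told apart.

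The repressor genes Per1, Cry1 and Cry2, were lower in every Cr1l tumour than in any Vec tumour, and Per1 by the most. The other 7 genes, including the activators Arntl and Clock and the output factor Dbp, had overlapping groups. The count of 3 of 10 lower without overlap stands beside 6.67% of all genes tested, and 0 of 10 higher without overlap beside 9.29%. By limma (adjusted p under 0.05) 1 of the 10, Per1, was called lower, beside 0.0134% of genes, and 0 were called higher, beside 0%. The authors' deposited table called the same 3 genes lower and none higher, beside 2.27% and 4.74% of its genes. As these values chose the genes, nothing is read from the shares.

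**Figure D1:**
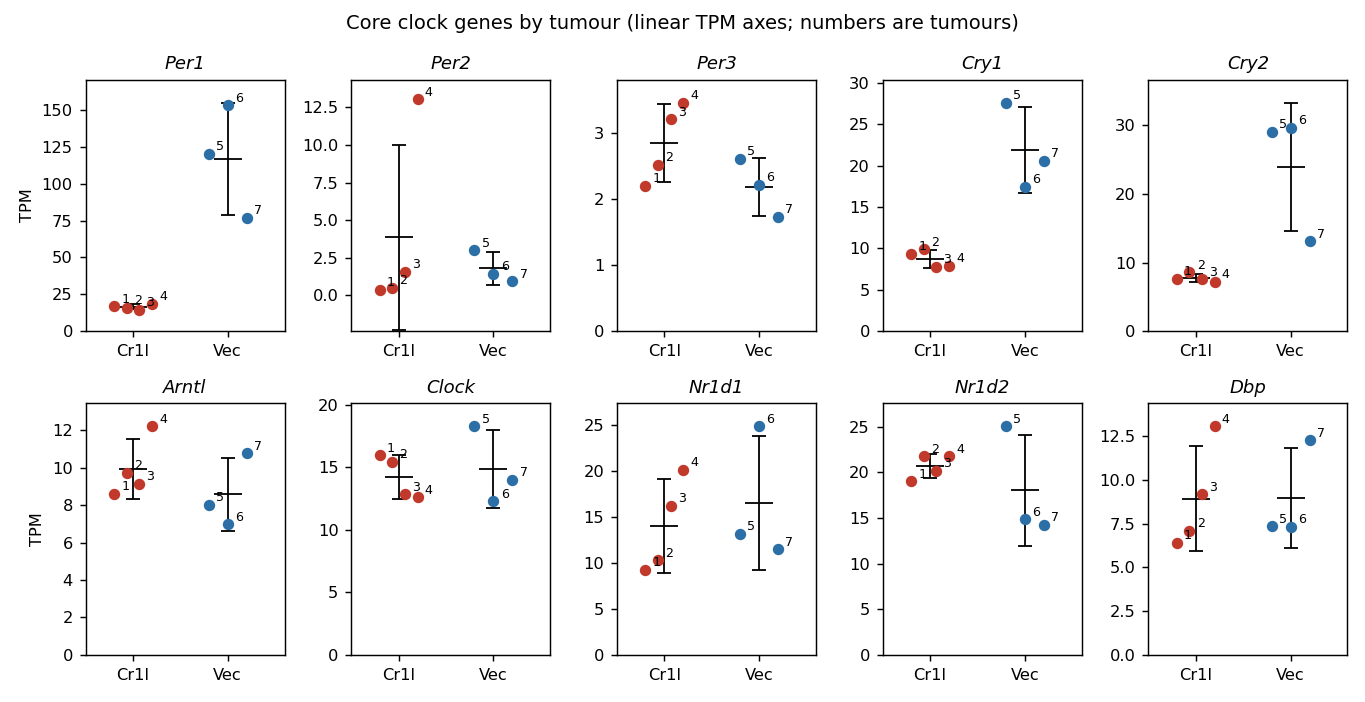
TPM of each clock gene (y axes, linear) in the 4 Cr1l tumours (left, red) and 3 Vec tumours (right, blue), with tumour numbers, the mean and SD bars. Per1, Cry1 and Cry2 do not overlap between the groups, and Per2 has 1 high tumour, Cr1l 4 at 13.04 TPM.

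Per1 stood at 16.77, 15.91, 14.60 and 18.63 TPM in Cr1l 1 to Cr1l 4, against 120.11, 153.13 and 77.00 TPM in Vec 5, Vec 6 and Vec 7. The Cr1l tumours lay close together, and the lowest Vec tumour was 4.13 times the highest of them. The means were 16.5 ± 1.69 TPM in Cr1l tumours (SD, n = 4) and 117 ± 38.2 TPM in Vec tumours (SD, n = 3), a ratio of 0.141. On the log2(TPM + 1) scale the difference was -2.70 (SE 0.23), and the authors' deposited table gave a log2 fold change of -2.90. Without Vec 5 and Vec 6 together it was -2.16, the smallest of the 13 alternative settings compared for the clock genes.

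Per2, a repressor that is usually strongly rhythmic, did not follow Per1. It stood at 0.35, 0.50, 1.58 and 13.04 TPM in Cr1l 1 to Cr1l 4 and at 3.00, 1.45 and 0.93 TPM in Vec 5 to Vec 7. Cr1l 1 and Cr1l 2 held the lowest values and Cr1l 4 the highest, so the Cr1l group spanned 37.3-fold and enclosed all 3 Vec tumours. The log2 difference was 0.14 (SE 0.80), and it turned to -0.90 without Cr1l 3 and Cr1l 4.

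Per3, whose part in the core loop is smaller than that of the other Per genes in mice, stood at 2.20, 2.52, 3.21 and 3.46 TPM in Cr1l tumours and 2.61, 2.22 and 1.73 TPM in Vec tumours. Cr1l 3 and Cr1l 4 lay above the Vec tumours, while Cr1l 1 and Cr1l 2 lay among them. Its log2 difference was 0.27 (SE 0.24).

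The make-up of the Per family thus differed between the groups in TPM, a scale that allows genes to be compared. Per1 made up 86.8%, 84%, 75.3% and 53% of the summed Per level in Cr1l 1 to Cr1l 4, against 95.5%, 97.7% and 96.7% in Vec 5 to Vec 7. In Cr1l 4 Per2 supplied 37.1% of the sum, against 0.925% to 2.39% in Vec tumours. The Per sum was 23.2 ± 7.96 TPM in Cr1l tumours (SD, n = 4) and 121 ± 38.8 TPM in Vec tumours (SD, n = 3).

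Both cryptochrome genes were lower in all 4 Cr1l tumours. CRY1 and CRY2 are the strongest repressors of ARNTL and CLOCK. Cry1 stood at 9.36, 9.91, 7.78 and 7.87 TPM in Cr1l tumours, against 27.63, 17.43 and 20.57 TPM in Vec tumours. Its means were 8.73 ± 1.07 TPM in Cr1l tumours (SD, n = 4) and 21.9 ± 5.22 TPM in Vec tumours (SD, n = 3), a log2 difference of -1.22 (SE 0.20). The lowest Vec tumour was 1.76 times the highest Cr1l tumour.

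Cry2 stood at 7.67, 8.57, 7.54 and 7.18 TPM in Cr1l tumours, against 29.05, 29.63 and 13.09 TPM in Vec tumours. The Cr1l tumours differed by 1.19-fold at most, and Vec 7 lay between them and the other Vec tumours. The means were 7.74 ± 0.591 TPM in Cr1l tumours (SD, n = 4) and 23.9 ± 9.39 TPM in Vec tumours (SD, n = 3), a log2 difference of -1.43 (SE 0.28). Without Vec 5 and Vec 6 together the difference was -0.69. The library kept no strand, and 4.67% of the exon bases of Cry2 in GENCODE M21 (GRCm38) are shared with the opposite-strand gene D930015M05Rik, which stood at 0.47 to 0.83 TPM in Cr1l tumours and 0.67 to 1.76 TPM in Vec tumours.

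Both cryptochrome genes kept a near equal balance in the Cr1l tumours. Cry1 supplied 55%, 53.6%, 50.8% and 52.3% of their sum in Cr1l 1 to Cr1l 4, and 48.7%, 37% and 61.1% in the Vec tumours. The range in Vec tumours enclosed that in Cr1l tumours, and the Cry sum was 16.5 ± 1.6 TPM in Cr1l tumours (SD, n = 4) and 45.8 ± 11.6 TPM in Vec tumours (SD, n = 3). Per1 stood 1.79, 1.61, 1.88 and 2.37 times as high as Cry1 in Cr1l tumours, against 4.35, 8.79 and 3.74 times in Vec tumours.

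**Figure D2:**
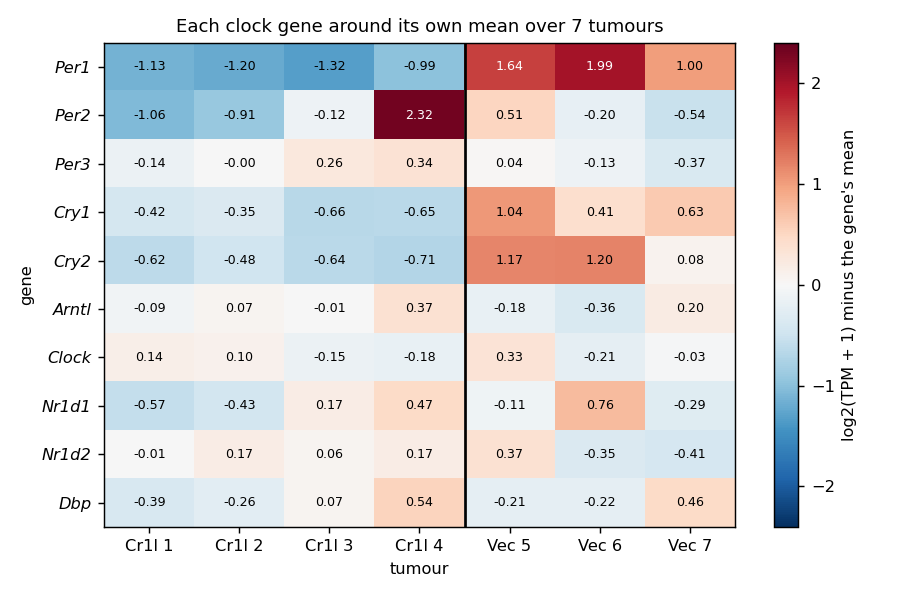
Log2(TPM + 1) of each clock gene (rows) in each tumour (columns, Cr1l left of the line and Vec right) minus the gene's mean over the 7 tumours, with the value in each cell. Per1, Cry1 and Cry2 are negative in all Cr1l tumours and positive in all Vec tumours, and Per2 reaches 2.32 in Cr1l 4.

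The activators showed small differences. Arntl stood at 8.61, 9.74, 9.14 and 12.22 TPM in Cr1l tumours and 8.03, 6.98 and 10.77 TPM in Vec tumours, with Vec 7 above 3 of the Cr1l tumours. Its log2 difference was 0.20 (SE 0.20). Clock stood at 15.95, 15.45, 12.84 and 12.59 TPM in Cr1l tumours and 18.27, 12.26 and 14.01 TPM in Vec tumours, and Vec tumours held both its highest and its lowest value. Its difference was -0.05 (SE 0.18), and of the 10 genes it varied least over the 7 tumours, by 1.49-fold from lowest to highest.

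The REV-ERB genes, whose products repress Arntl, had overlapping groups too. Nr1d1 stood at 9.28, 10.29, 16.20 and 20.09 TPM in Cr1l tumours and 13.17, 24.84 and 11.49 TPM in Vec tumours. Vec 6 held the highest value and Cr1l 1 the lowest, for a log2 difference of -0.21 (SE 0.34). Its exons overlap those of Thra, a thyroid hormone receptor gene on the opposite strand, over 8.55% of their bases. Thra stood at 13.58, 15.92, 25.57 and 30.47 TPM in Cr1l tumours and 12.30, 17.26 and 12.15 TPM in Vec tumours. Like Nr1d1, it was highest among the Cr1l tumours in Cr1l 3 and Cr1l 4, and reads of the shared bases cannot be assigned to either gene. Nr1d1 was 0.683, 0.646, 0.634 and 0.659 times Thra in Cr1l tumours. In Vec tumours it was 1.07, 1.44 and 0.946 times Thra, so this ratio did not overlap between the groups.

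Nr1d2 stood at 19.04, 21.76, 20.14 and 21.77 TPM in Cr1l tumours and 25.05, 14.84 and 14.25 TPM in Vec tumours. The Cr1l tumours lay within 1.14-fold of each other, between Vec 5 above and both other Vec tumours below. The log2 difference was 0.23 (SE 0.21), and it turned to -0.27 when Vec 5 was the only vector tumour kept.

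Dbp, often used as a readout of ARNTL and CLOCK activity, had the same mean in both groups to within 1 SD. It stood at 6.39, 7.08, 9.16 and 13.05 TPM in Cr1l tumours and 7.34, 7.30 and 12.24 TPM in Vec tumours. The means were 8.92 ± 2.99 TPM in Cr1l tumours (SD, n = 4) and 8.96 ± 2.84 TPM in Vec tumours (SD, n = 3), a log2 difference of -0.02 (SE 0.29). Sphk2, a lipid kinase gene on the opposite strand, shares 18% of the exon bases of Dbp and stood at 13.71 to 24.81 TPM over the 7 tumours.

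Ratios within a tumour do not depend on how tumours are scaled to each other. Arntl was 1.35, 1.38, 0.998 and 0.936 times Dbp in Cr1l 1 to Cr1l 4, and 1.09, 0.956 and 0.88 times Dbp in Vec 5 to Vec 7. Cr1l 1 and Cr1l 2 lay above the Vec tumours, and Cr1l 3 and Cr1l 4 lay among them. Nr1d1 was 1.08, 1.06, 1.77 and 1.64 times Arntl in Cr1l tumours, against 1.64, 3.56 and 1.07 times in Vec tumours, again with overlap.

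The order of levels in TPM differed between the groups. In Cr1l tumours Nr1d2 was the most abundant of the 10, at 20.7 ± 1.33 TPM, above Per1 in all 4. Per1, Clock, Nr1d1, Arntl, Dbp, Cry1, Cry2, Per2 and Per3 followed, and each of these neighbours overlapped over the tumours. In Vec tumours Per1 came first, above Cry2 without overlap, and then Cry2, Cry1, Nr1d2, Nr1d1, Clock, Dbp, Arntl, Per3 and Per2. There the breaks without overlap were those between Per1 and Cry2, Clock and Dbp, and Arntl and Per3.

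The Cr1l tumours lay close together for Per1, Cry1, Cry2 and Nr1d2. On the log2(TPM + 1) scale the SD among Cr1l tumours was 0.14 for Per1, 0.16 for Cry1, 0.10 for Cry2 and 0.09 for Nr1d2, against 0.50, 0.32, 0.64 and 0.43 among Vec tumours. Clock and Arntl were nearly as close, at 0.17 and 0.20, against 0.27 and 0.29 among Vec tumours. Per2, Per3 and Dbp had the larger SD among Cr1l tumours. Per1 stayed between 14.60 and 18.63 TPM, and the macrophage list ran from 518 to 5138 TPM over the same 4 tumours. Per2, Per3, Nr1d1 and Dbp were highest among Cr1l tumours in Cr1l 3 and Cr1l 4, where macrophage and fibroblast transcripts were also highest, and Cry1, Cry2 and Clock were lowest there. Such an order was not particular to these genes: of 35 other clock network genes 21 were lowest there and 8 highest. The melanocyte list was also lowest there, at 9173 and 10457 TPM, against 20406 and 18950 TPM in Cr1l 1 and Cr1l 2. The part of melanoma, macrophage and fibroblast cells in these values was not tested.

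Skin and muscle transcripts were lower in 3 of the 4 Cr1l tumours than in any Vec tumour. The keratinocyte list (Krt5, Krt14, Krt1, Krt10, Trp63) summed to 0.98, 0.41, 44.7 and 2.27 TPM in Cr1l tumours and 48.1, 845 and 7.63 TPM in Vec tumours. In Cr1l 1, 4 of the 5 markers were at 0, and 3 of 5 in Cr1l 2 and in Cr1l 4. The skeletal muscle list (5 markers) summed to 26.5, 12.1, 261 and 4.69 TPM in Cr1l tumours and 309, 1512 and 62.1 TPM in Vec tumours. Cr1l 3 and Vec 5 had similar sums of both lists. Per1 stood at 14.60 TPM in Cr1l 3 and 120.11 TPM in Vec 5, Cry1 at 7.78 and 27.63 TPM, and Cry2 at 7.54 and 29.05 TPM. This is 1 pair of tumours, and it was not alike in other lists. The macrophage list summed to 5138 TPM in Cr1l 3 and 1363 TPM in Vec 5, and the melanocyte list to 9173 and 19237 TPM. The part of skin and muscle in the group differences was not tested.

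**Figure D3:**
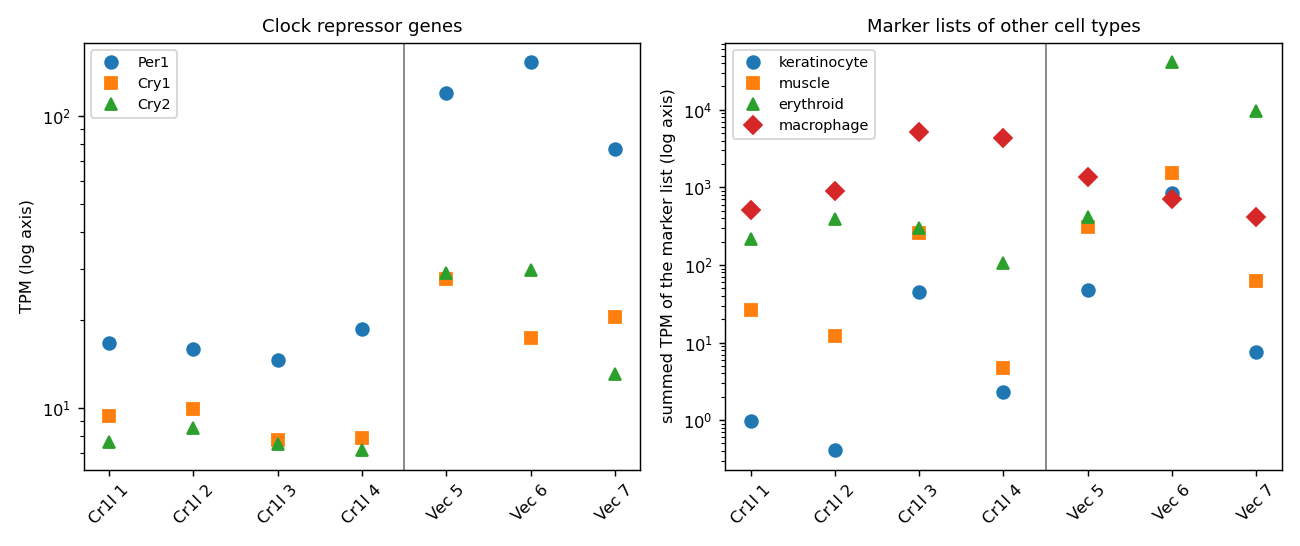
Left, TPM of Per1, Cry1 and Cry2 and, right, summed TPM of the keratinocyte, skeletal muscle, red cell and macrophage marker lists in each tumour (log axes, Cr1l tumours left of the line and Vec tumours right). Per1, Cry1 and Cry2 are low in all 4 Cr1l tumours. The keratinocyte sum is 44.7 TPM in Cr1l 3 and 48.1 TPM in Vec 5, and in the other Cr1l tumours it lies below every Vec tumour. The part of skin in the group differences was not tested.

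The wider clock network, 35 genes in 3 lists, gave no call by limma. Of them 32 were tested, with 15 negative and 17 positive differences and a median of 0.01 on the log2 scale, against 0.05 over all genes tested. At an unadjusted p under 0.05, 3 of the 32 were lower and 0 higher, beside 6.07% and 9.49% of all genes, and 0 passed after adjustment (smallest adjusted p = 0.219). Groups did not overlap in 3 of the 32, all lower in Cr1l tumours, beside 6.67% of all genes tested, and 0 were higher without overlap, beside 9.29%. The authors' deposited table called Gadd45a lower (adjusted p = 0.0343) and no other gene of the 35 in either direction. A p that misses the threshold does not show that a gene was unchanged. The 3 lists were chosen with earlier results of these data known.

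Among 9 tested transcription factors of the loops, 0 passed. Hlf, a relative of Dbp that binds the same D-box, stood at 4.46, 3.86, 1.72 and 1.43 TPM in Cr1l tumours, against 5.51, 5.99 and 5.66 TPM in Vec tumours. The groups did not overlap, for a log2 difference of -0.88 (SE 0.33, adjusted p = 0.281 by limma). Bhlhe40, which encodes the E-box repressor DEC1, stood at 256.73, 274.39, 143.47 and 197.70 TPM in Cr1l tumours and 389.90, 349.47 and 243.53 TPM in Vec tumours (-0.60, adjusted p = 0.321 by limma). Nfil3, the D-box repressor E4BP4, had a difference of -0.61 (adjusted p = 0.356 by limma), and Arntl2, a paralog of Arntl, one of 0.53 (adjusted p = 0.378 by limma). Npas2, a paralog of Clock, and Rorb fell under the filter, both higher in Cr1l tumours with groups that did not overlap. These are low values, and no share without overlap was counted among genes under the filter. Npas2 stood at 0.19, 0.23, 1.51 and 0.92 TPM in Cr1l tumours and 0.14, 0.17 and 0.05 TPM in Vec tumours. Rorb stood at 0.04 to 0.12 TPM in Cr1l tumours and 0.00 to 0.03 TPM in Vec tumours.

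The kinases, ubiquitin ligases and partners of PER and CRY had the narrowest range, from -0.27 to 0.36 over 13 tested genes, with 0 called. Sfpq, an RNA-binding partner of PER proteins, had a difference of -0.27 with groups that did not overlap (adjusted p = 0.341 by limma). Csnk2a1, a catalytic subunit of casein kinase 2, had 0.36 (adjusted p = 0.378), Csnk1e, a casein kinase that phosphorylates PER, -0.26 (adjusted p = 0.496), and Wdr5, a histone methylation cofactor, -0.21 (adjusted p = 0.515). Fbxl21, a ligase component for CRY, was under the filter, at 0.15 to 1.02 TPM in Cr1l tumours and 0.00 to 0.11 TPM in Vec tumours, also without overlap at low values.

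Among 10 output genes 0 were called. Gadd45a, a growth arrest gene, stood at 17.51, 19.24, 19.93 and 22.47 TPM in Cr1l tumours and 38.48, 33.02 and 25.17 TPM in Vec tumours, with no overlap (-0.66, SE 0.18, adjusted p = 0.219 by limma). Pdk4, a kinase that restrains glucose oxidation, had -1.50 with an SE of 0.83 (adjusted p = 0.403), and Wee1, a cell cycle kinase driven by an E-box, had -0.45 (adjusted p = 0.461). Single tumours moved both: Pdk4 was -0.60 without Vec 6 and -2.49 without Vec 7, and Wee1 was -0.18 without Vec 5 and -0.72 without Vec 6. Nampt, the rate-limiting enzyme of NAD salvage, had 0.17 (adjusted p = 0.548).

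**Figure D4:**
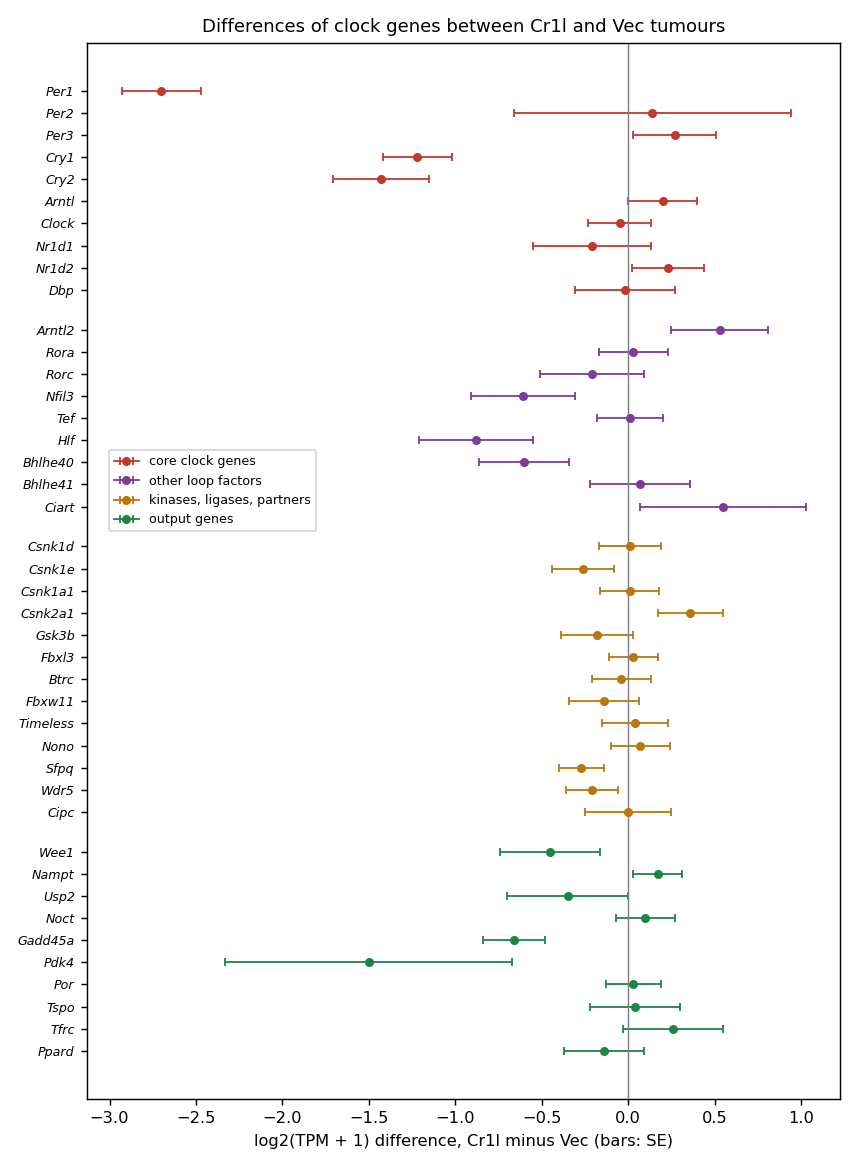
Difference in log2(TPM + 1), Cr1l minus Vec, with SE bars (x axis) for the 10 core clock genes and 32 tested genes of the wider clock network (y axis), coloured by list. Per1 (-2.70), Cry2 (-1.43) and Cry1 (-1.22) lie left of most others, and Pdk4 (-1.50) has a wide bar.

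Inducible genes that share stimuli with Per1 had mostly negative differences. Of 22 immediate-early and glucocorticoid-induced genes 19 were negative and 3 positive, against 6673 negative and 8281 positive over all genes tested. Their median was -0.70, against 0.05 over all genes. By limma, 12 of the 22 were lower and 0 higher at an unadjusted p under 0.05, beside 6.07% and 9.49% of all genes, and 0 passed after adjustment (smallest adjusted p = 0.0918). The authors' deposited table called 10 of the 22 lower and 0 higher, beside 2.27% and 4.74% of its genes. These lists were chosen with earlier results of these data known, so nothing is read from the shares. Fos, a subunit of AP-1, stood at 29.13, 32.06, 22.54 and 23.57 TPM in Cr1l tumours, against 177.66, 136.78 and 65.78 TPM in Vec tumours (-2.10, SE 0.32). Nr4a1, an orphan nuclear receptor, had -1.24 (adjusted p = 0.109), and the metallothionein genes Mt2 and Mt1 had -0.68 (adjusted p = 0.12) and -0.75 (adjusted p = 0.203). Without Vec 7, Fos (adjusted p = 0.0442) and Fosb passed. Fosb is named because it passed there.

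Profiles most like that of Per1 were sought over the 7 tumours by the mean absolute difference of log2(TPM + 1) values, each gene centred on its own mean. The search took in 12983 of the tested genes. It left out the clock genes and all genes with predicted or clone names (Gm, Rik, BC, AC, AI or ENSMUSG). The nearest were the histone genes H2bc18 (0.185) and H2bc11 (0.388), the ribosomal pseudogene Rpl13-ps1 (0.267), Fos (0.363) and the metallothionein gene Mt4 (0.418). H2bc18 stood at 0.29 TPM in Cr1l 1 and was listed at 0 in the other 3 Cr1l tumours, against 9.83, 8.50 and 3.61 TPM in Vec tumours, and reads may be split between near-identical histone genes. Mt4 was listed at 0 in every Cr1l tumour and stood at 2.20, 5.91 and 1.13 TPM in Vec tumours. Rpl13-ps1 and H2bc11 were also near the floor in Cr1l tumours, at 0.00 to 0.29 TPM and 0.00 to 1.52 TPM. Among the clock genes Cry2 (0.624) and Cry1 (0.728) were nearest to Per1, and the other 7 lay at 1.219 to 1.455. This distance takes in the difference between Cr1l and Vec tumours, which was known when the genes were chosen. The order among the clock genes is therefore not a separate result.

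For Arntl the nearest profiles in the same search were those of Arglu1 (0.047), Gmppa (0.067), Pigv (0.068), Micu3 (0.069) and Zbtb49 (0.073). Arglu1, a splicing-related gene, stood at 52.69, 58.67, 55.32 and 62.88 TPM in Cr1l tumours and 47.69, 41.74 and 61.69 TPM in Vec tumours. Dbp lay at 0.186 from Arntl, the nearest of the clock genes, followed by Per3 at 0.205. A small distance is easier to reach for a gene that varies little, as Arntl did.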

How the data were processed

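The members and gene lists were chosen with earlier results of these data known. Per the labels' protocols, poly-T selected RNA was made into libraries without strand. Per the submitters' processing notes, the authors used RSEM and DESeq2 with mm39. Versions, aligner and annotation: not given in the sources used here. Values deposited by the authors are on the log2(TPM + 1) scale per gene symbol. With the logarithm undone they sum to 993520 to 996031 per tumour. TPM keeps no depth, so depth is unknown. The authors' deposited comparison gives a mean normalized count (a signal averaged over tumours), log2 fold changes and adjusted p-values, with Cr1l read as numerator from its own sign. Of 28369 identifiers 27182 matched a symbol (GRCm38 names).

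The 14954 genes averaging 1 TPM or more were fitted with limma 3.58.1 in R 4.3.3, with group as the only term and a variance trend. P-values are two-sided, adjusted by Benjamini-Hochberg, with a threshold of 0.05. SE are from that fit, which was run on simulated data with large planted differences and a capped spread. That check does not cover small differences or genes that vary widely. Replicates are the numbered tumours. Named genes are the 10 members, those with the smallest p in each list (4 per network list and 2 per inducible list), the 5 profiles nearest to Per1 and to Arntl, and genes that overlap a member. Npas2, Rorb, Fbxl21 and Fosb were named outside that rule, after their values were seen. Alternatives changed the pseudocount, filter, scaling, weights and tumours kept. The antigen receptor table was not used. Figures: matplotlib 3.10.9 in Python 3.11.15. Sequences are from RefSeq (GRCm38.p6), a build other than mm39, so they serve as sequence only.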

Additional observations from a re-analysis of the deposited data

Results flagged for a closer look

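Per2 in Cr1l 4, at 13.04 TPM, lay far from the other 3 Cr1l tumours, which held 0.35, 0.50 and 1.58 TPM. The gap made up 0.903 of the range of the group, above Dixon's critical value for 4 values. Arntl2 in Cr1l 1, at 9.50 TPM, lay apart from 4.77, 5.32 and 4.54 TPM in the other Cr1l tumours, with a gap of 0.843 of the range. Such gaps were sought in 26 genes on linear TPM, not on the log2(TPM + 1) scale of the fits, which shrinks gaps below a high value. For normally distributed values chance alone gives about 1 in 20, and linear TPM need not be so distributed. Neither gap is therefore read as an outlier on the log2 scale.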

How the results depend on the processing

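Per1, Cry1 and Cry2 kept a negative difference in all 13 settings in which the clock genes were compared. The changes of filter and arrayWeights were not among these. Per1 was -2.16 and Cry2 -0.69 without Vec 5 and Vec 6, a setting chosen after seeing the data. Cry1 was -0.95 with a pseudocount of 5 and -1.56 without Vec 6 and Vec 7, where the lone vector tumour is taken to vary as the other group does. Leaving out 1 tumour at a time gave -2.97 to -2.48 for Per1. Among the other 7 genes Per3 kept its sign, and the sign of Per2, Clock and Dbp changed in 5, 4 and 4 settings. The calls over all genes (2) numbered 6 with a pseudocount of 0.1 or 5, 0 with no filter, 1 at a mean of at least 5 TPM, 10 with median-of-ratios scaling, 14 with arrayWeights, 0 to 7 without 1 tumour, 6 without Vec 6 and Vec 7, 0 without Cr1l 3 and Cr1l 4, and 8 without Vec 5 and Vec 6. Clock network calls stayed at 0 by limma in every setting and were 1 in the authors' deposited table. Inducible gene calls were 0 to 2 without 1 tumour. Without Vec 5 and Vec 6, Nfil3 turned to 0.01 and Pdk4 to 0.48, and without Vec 6 and Vec 7 Nampt turned to -0.06; the cause was not tested. No paired analysis was possible because the tumours carry 7 different numbers.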
